A study of Mus musculus with 1298 samples.

Results

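The cells described here are muscle progenitor-like cells of mouse embryos at E14.5, taken from the progeny of *Pax7*-expressing cells. They were chosen by their own transcripts: a cell was a member when a panel of 4 muscle progenitor genes, *Msc*, *Cdh15*, *Myf5* and *Capn6*, scored higher in it than 8 other panels of 4 genes each and reached at least 0.7. The score was the mean over the 4 genes of log2(1 + counts per 10000 counts of the cell). The other panels stood for early mesenchyme, late mesenchyme, differentiating muscle, dermal fibroblasts, brown adipocytes, neurons, neural progenitors or glia, and pericytes. The rule found 207 members among 1290 E14.5 cells, of 3852 cells kept over all days. Of these members, 153 were profiled by 10x Chromium (droplet capture, reads counted per unique molecular identifier, UMI) and 54 by Smart-seq2 (full-length RNA-seq of single cells in plates, without UMIs).

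All embryos carried *Pax7CreER*, which expresses a tamoxifen-activated Cre recombinase where *Pax7* is active, and *R26R-stop-EYFP*, a reporter that makes YFP once Cre has removed a stop cassette. Tamoxifen was given at E9.5 in every group, the groups were the days of harvest, E12.5, E14.5 and E16.5, and there was no untreated group. Dispase was added to the collagenase digestion from E14.5 on but not at E12.5, and each Smart-seq2 sequencing batch held cells of 1 day only, so day cannot be told apart from digestion or from batch. Heads, limbs and viscera were removed, so limb and head muscle are not covered, and YFP+ cells of several pooled embryos were sorted. The spread between embryos was therefore not measured, and each day had 1 10x library and several Smart-seq2 plates.

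In the trunk, skeletal muscle forms from progenitors of the dermomyotome, the dorsal epithelium of the somite. *Pax3* and *Pax7* encode paired-box factors that maintain the progenitor state, *Myf5* and *Myod1* encode basic helix-loop-helix factors that commit cells to muscle, and *Myog* encodes the factor that starts terminal differentiation. Embryonic myogenesis lays down the first fibres, and fetal myogenesis then adds most of the fibres present at birth while *Pax7*+ progenitors go on dividing. Notch signals hold progenitors back from differentiation, and some progenitors later settle under the basal lamina as satellite cells, the stem cells of adult muscle.

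The basic helix-loop-helix factors bind the E-box, CANNTG, where N is any base. The 120 bases just before the start of 5 genes on which the results turn are printed 5′ to 3′ on the strand of the gene, from RefSeq on GRCm38.p6, to show which of them hold this motif, with each E-box in capitals: 3 of the genes that chose the members, the differentiation factor *Myog*, and *Chodl*, which had the largest rise from E12.5 to E14.5 among called genes of at least 50 CPM with the same sign on both platforms. *Capn6* (chrX:143827413-143827532, minus strand) held 2 E-boxes, both CATCTG. *Cdh15* (chr8:122848254-122848373, plus strand) held 1 (RefSeq starts this gene inside the longer GENCODE gene given further on), *Myf5* (chr10:107486135-107486254, minus strand) held 0, *Myog* (chr1:134289884-134290003, plus strand) held 1 and *Chodl* (chr16:78930828-78930947, plus strand) held 2.
Capn6: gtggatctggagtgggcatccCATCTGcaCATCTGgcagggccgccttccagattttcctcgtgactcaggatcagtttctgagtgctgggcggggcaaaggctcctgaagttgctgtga
Cdh15: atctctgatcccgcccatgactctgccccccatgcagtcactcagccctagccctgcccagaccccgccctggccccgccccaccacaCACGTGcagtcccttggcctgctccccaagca
Myf5: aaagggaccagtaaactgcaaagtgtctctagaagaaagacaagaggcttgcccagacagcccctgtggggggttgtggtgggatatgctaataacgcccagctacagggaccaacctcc
Myog: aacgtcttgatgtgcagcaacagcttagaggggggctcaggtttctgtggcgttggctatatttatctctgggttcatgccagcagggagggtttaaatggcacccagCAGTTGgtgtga
Chodl: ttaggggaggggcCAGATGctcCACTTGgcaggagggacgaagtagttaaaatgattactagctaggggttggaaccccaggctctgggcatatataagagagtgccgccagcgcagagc
Because the motif is its own reverse complement in form, a match on one strand is also a match on the other. Of 32851 RefSeq promoter windows of the same length, 40.2% held at least 1 E-box and 10.6% held 2 or more, so the motif is common and a match describes letters, not binding. No entry was used for *Msc* and *Myod1*.

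Depth differed between days and bears on every comparison of cells. The median 10x member held 8081 UMIs at E14.5, against 2138 at E12.5 and 1751 at E16.5, and the median Smart-seq2 member held 232884, 751621 and 883576 estimated counts, in order of day. Of the 10x members, 12 of 31, 8 of 153 and 39 of 84, in the same order, had counts of only 1 of the 4 panel genes. Each pair of 10x libraries shared 1 cell barcode, and 1 E14.5 member was called a doublet. The defining markers of pericytes were all at 0 in the 10x members at E14.5, and those of endothelium *Cdh5* and *Kdr* were at 0 there too. The 4 dermal fibroblast genes summed to 17.8 CPM (summed counts scaled to a total of 1e+06) on 10x and 6.07 on Smart-seq2, against 2962 and 4558 in dermal fibroblast-like cells. The 5 listed endothelial genes summed to 1.6 CPM on 10x and 66.1 on Smart-seq2, against 13.8 and 115 in cells of neither muscle class. Blood genes, mainly haemoglobin, summed to 115 CPM in the 10x members and to 129 in cells of neither muscle class and 117 in dermal fibroblast-like cells.

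The members' share of the sorted cells was near 16% at E14.5 on both platforms. On 10x it was 15.9%, with an exact binomial 95% interval from 13.6 to 18.3, and on Smart-seq2 it was 16.6% (12.7 to 21.1). On single E14.5 plates it was 6.52%, 16.9%, 29.1% and 13.6%, a wider range than that between the 3 Smart-seq2 days. The 10x share was 3.05% (2.08 to 4.30) at E12.5 and 8.94% (7.19 to 10.9) at E16.5, whereas the Smart-seq2 share was 14.01% (10.4 to 18.4) and 21.6% (17.1 to 26.8). When 10x cells under 1500 UMIs were left out, which kept 711 of 1017, 961 of 964 and 528 of 940 cells in order of day, and the others were thinned to 1500 UMIs, the shares were 5.06%, 10.6% and 12.1%. The E16.5 share then did not lie below that of E14.5, and the effects of leaving cells out and of thinning were not separated. The intervals cover counting error only, and shares of sorted cells say nothing of cell numbers in the embryo.

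**Figure D1:**
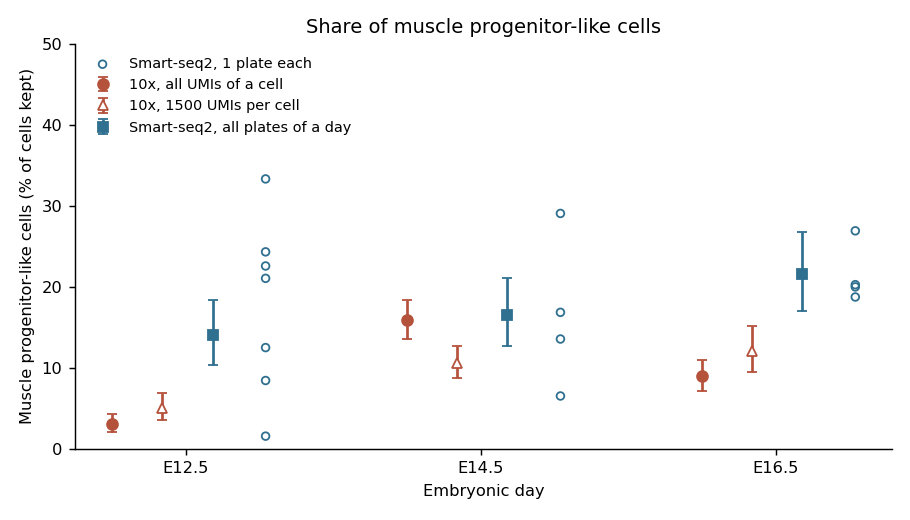
Share of kept cells that were muscle progenitor-like, in percent on the y axis, by day of harvest on the x axis, for all 10x UMIs, 10x cells of at least 1500 UMIs thinned to that number and all Smart-seq2 plates (points with 95% exact binomial intervals), with single plates as small points. The E14.5 shares of both platforms lie near 16%, and the 10x order of E14.5 and E16.5 turns when shallow cells are left out and the others thinned.

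Scores of the 10x members ran from 0.715 to 2.74 with a median of 1.28, and those of the Smart-seq2 members from 1.13 to 3.64 with a median of 2.71. The 5 lowest 10x members scored 0.715 to 0.734, and 12 more 10x cells in which the panel ranked first scored 0.477 to 0.686 and stayed outside. All 4 panel genes had counts in 20 of 153 10x members and 39 of 54 Smart-seq2 members. A second panel also reached 0.7 in some members: that of differentiating muscle in 14 of 153 on 10x and 10 of 54 on Smart-seq2, and that of late mesenchyme in 8 and 25.

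The genes that chose the members follow with their levels, as a description. *Msc*, which encodes the basic helix-loop-helix repressor musculin or MyoR (GRCm38, chr1:14753346-14755992, minus strand), stood at 218 CPM in the summed 10x members and 421 CPM in the summed Smart-seq2 members, against 6.01 and 1.09 CPM in E14.5 cells of neither muscle class. *Cdh15*, which encodes the muscle cadherin M-cadherin (chr8:122847966-122867397, plus strand), stood at 122 and 715 CPM against 6.53 and 2.45. *Myf5* (chr10:107482908-107486134, minus strand) stood at 129 and 144 CPM against 2.35 and 0.65. *Capn6*, which encodes a calpain family member without protease activity (chrX:143802231-143827414, minus strand), stood at 413 and 3229 CPM against 131 and 302, so it was the least restricted of the 4. Over the 4 plates, *Msc* ranged from 163 to 674 CPM and *Capn6* from 3020 to 3616 CPM.

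The members also held transcripts of muscle progenitor genes that the panel does not contain. Of 2550 genes at 50 CPM or more on both platforms in the members or in the cells compared with them, 102 (4.00%) were at least 2-fold higher in members than in E14.5 cells of neither muscle class on both platforms, and 269 (10.5%) were at least 2-fold lower. These are descriptions without a test, since the rule chose the cells by the same contrast. All 5 genes of the further list of muscle progenitor markers that reached that level, *Pax7*, *Myod1*, *Vgll2*, *Pitx3* and *Heyl*, were among the higher ones. Of these 5, only *Pax7* was also at least 2-fold higher than in the differentiating muscle-like cells compared further on. Of 17 myogenic transcription factors, 9 were higher (among them *Msc*, *Myf5*, *Myod1*, *Myog*, *Pax7*, *Pitx3*, *Vgll2* and *Vgll3*) and 1 was lower, *Id2*, an inhibitor of basic helix-loop-helix factors. The rule itself set the direction of *Msc* and *Myf5*, and *Myog* belongs to the panel whose cells were taken out of the comparison.

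*Pax7* (chr4:139737062-139833528, minus strand) headed the genes outside the panels when each was ranked by the smaller of its 2 platform ratios. It stood at 66.2 CPM in the 10x members and at 80.7, 49.99, 40.8 and 45.5 CPM in the members of the 4 plates. The cells of neither muscle class held 4.44 CPM on 10x and 0.70 on Smart-seq2, log2 ratios of 3.90 and 6.21. Every plate of members lay far above the other cells.

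*Myod1* stood at 178 CPM on 10x and at 468, 394, 200 and 263 CPM on the 4 plates, against 21.7 CPM in the other 10x cells and 0.018 CPM in the other Smart-seq2 cells. *Vgll2*, which encodes a cofactor of Tead factors, stood at 227 CPM against 22.7 on 10x and 173 against 0.048 on Smart-seq2. *Pitx3*, a homeobox factor of muscle progenitors, stood at 50.9 against 4.18 CPM and 150 against 0.36 CPM. The 10x ratio was the smaller one for each of these genes.

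Among signalling genes, the members stood out from the cells of neither muscle class by a few only. *Heyl*, a transcriptional target of Notch, was at 53.3 against 8.09 CPM on 10x and 138 against 3.88 on Smart-seq2, and 3 of 7 measured Notch pathway genes were higher (*Heyl*, *Hes6* and the receptor gene *Notch3*). *Pdgfa*, a platelet-derived growth factor ligand, was the only 1 of 13 growth factor genes that was higher, at 284 against 42.3 CPM on 10x and 171 against 4.65 on Smart-seq2. *Ghr*, the growth hormone receptor gene, and *Igfbp4*, an insulin-like growth factor binding protein gene, were lower, as were the secreted Wnt modulators *Sfrp1* and *Sfrp2*.

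Matrix genes set the members apart in the other direction. Of 24 measured extracellular matrix genes, 14 were at least 2-fold lower in members on both platforms and 0 were higher. *Col6a1*, a chain of collagen VI, stood at 71.9 CPM in 10x members and 408 in the other cells, and at 410 and 1773 CPM on Smart-seq2. Of 10 satellite cell niche and adhesion genes, 3 were higher (*Cdh15*, which helped to choose the members, the dystroglycan gene *Dag1* and the glypican gene *Gpc1*) and 4 were lower (*Cdh2*, *Cdh11*, *Ncam1* and *Vcam1*).

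The members already carried contractile transcripts at low level. Of 10 measured contractile and fusion genes, 7 were higher than in the cells of neither muscle class. *Cryab* and *Cdkn1c* were among the 7, and with *Cdkn1a* they are genes of this list that are not contractile or fusion genes. *Actc1*, the cardiac alpha-actin that early skeletal muscle also makes, stood at 328 against 45.7 CPM on 10x and 1342 against 4.21 on Smart-seq2. *Tnnt1*, slow skeletal troponin T, stood at 325 against 55.4 and 209 against 2.49 CPM, and *Neb*, which encodes the giant thin-filament protein nebulin, at 62.98 against 4.70 and 136 against 3.09 CPM.

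Against the 146 differentiating muscle-like cells of E14.5 (112 on 10x, 34 on Smart-seq2), the members held far less of the contractile program. Both classes were chosen by the rule, so these values too are a description. Of 2328 genes, 187 (8.03%) were at least 2-fold higher in members on both platforms and 181 (7.77%) lower. The lower ones included 23 of 27 contractile and fusion genes, among them *Mylpf*, *Tnni1* and *Chrna1*, which chose the differentiating cells. *Cryab* and *Cdkn1a* were also among the 23. *Myl1*, an essential myosin light chain, stood at 11.3 CPM in 10x members against 1025, and at 4.73 against 361 on Smart-seq2. *Tnnt2*, a troponin T, stood at 20.995 against 1134 and 30.1 against 1150 CPM. *Mymk*, which encodes the fusion protein myomaker, stood at 5.65 against 213 and 17.2 against 1070 CPM.

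The regulators of the members and of differentiating cells overlapped in part. Of 6 measured genes of the further list of muscle progenitor markers, 1 was at least 2-fold higher in members on both platforms, *Pax7*. *Megf10* and *Vgll2* were at least 2-fold lower, and *Heyl*, *Myod1* and *Pitx3* were neither. The 10 listed markers summed to 692 CPM in members against 1274 on 10x, and to 1648 against 2475 on Smart-seq2. *Pax7* was at 66.2 against 4.94 CPM on 10x and 51.8 against 0.41 on Smart-seq2, and *Myf5* at 129 against 1.23 and 144 against 2.27. *Myod1* ran the other way by less than 2-fold on Smart-seq2, at 178 against 394 and 339 against 596 CPM. *Myog*, which helped to choose the differentiating cells, was at 114 against 3333 and 404 against 7098 CPM. *Cdh15*, although a gene of the members' own panel, was higher in differentiating cells, at 122 against 247 and 715 against 1872 CPM.

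Genes higher in members than in differentiating cells included surface and secreted proteins. *Notch3* was at 50.9 against 2.47 CPM on 10x and 170 against 4.07 on Smart-seq2. The other signalling genes named above as higher in members were not higher here: *Hes6* was at least 2-fold lower in members on both platforms. *Heyl* and *Pdgfa* were neither 2-fold higher nor 2-fold lower on both platforms. *Gas6*, the ligand of the Tyro3, Axl and Mertk receptors, was at 61.4 and 152 CPM in members and at 0 in differentiating cells on both platforms. *Chodl*, which encodes the transmembrane lectin chondrolectin, was at 58.1 against 1.23 and 217 against 0.83 CPM. *Igfbp5*, an insulin-like growth factor binding protein, was at 190 against 11.1 and 371 against 7.79, and *Col18a1*, a basement membrane collagen, at 92.9 against 4.94 and 485 against 16.3 CPM. In the embryonic-to-fetal list, *Nfia* and *Nfib*, nuclear factor I genes, were higher in members, and *Eno3*, *Myh3* and *Myh8*, genes of the fibre itself, were lower. Of 11 matrix genes 7 were higher in members and 0 were lower. Of 27 respiratory chain genes, 0 differed by 2-fold on both platforms in either comparison.

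**Figure D2:**
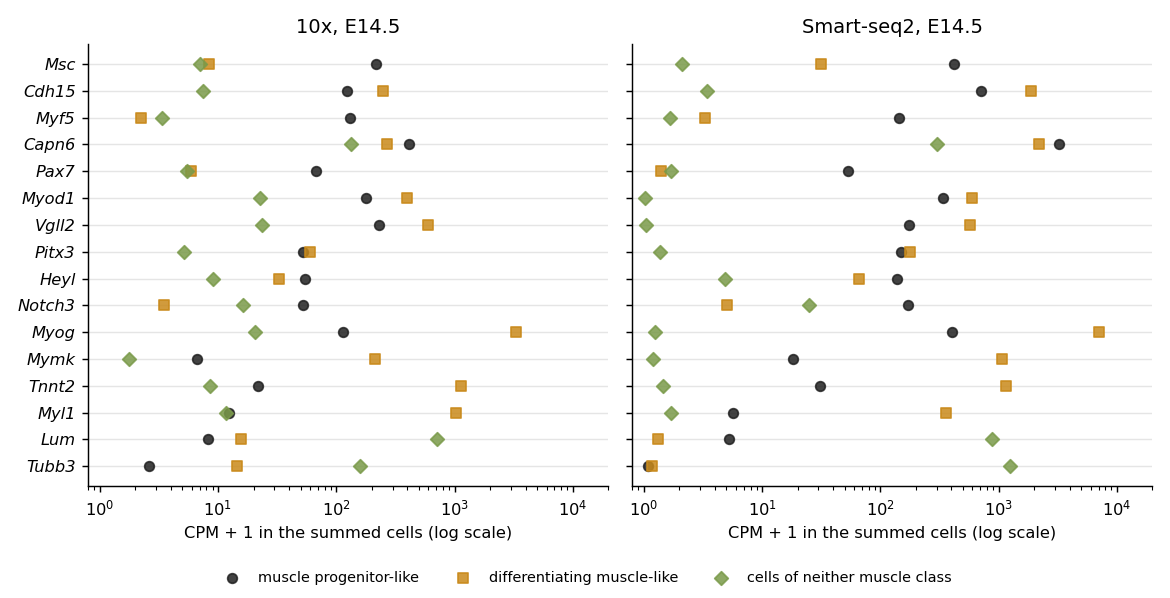
Level of 16 genes in CPM + 1 (log axis) at E14.5, in summed muscle progenitor-like cells, differentiating muscle-like cells and cells of neither muscle class, with a panel for each platform. *Pax7*, *Msc* and *Myf5* are highest in the progenitor-like cells, *Myog*, *Mymk*, *Tnnt2* and *Myl1* in the differentiating cells, and *Lum* and *Tubb3* in the remaining cells.

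Cell cycle transcripts were abundant in the members. The summed counts of 20 S phase genes had a median of 76.2 per 10000 counts in Smart-seq2 members (lowest 11.4, highest 153), against 7.43 in differentiating and 28.4 in dermal fibroblast-like cells. The 20 G2/M genes had a median of 24.6 (lowest 1.23, highest 142), against 2.46 and 9.60. On 10x the members' medians were 30.6 for S and 25.9 for G2/M, against 3.41 and 3.26 in differentiating cells. All 54 Smart-seq2 members reached 10 per 10000 in S phase genes and 41 did in G2/M genes, while 10 of 34 differentiating cells reached either level. Transcripts of *Mki67* or *Top2a*, made by dividing cells, were found in 49 of 54 Smart-seq2 members (90.7%) and in 100 of 153 10x members (65.4%). Of the listed genes measured against differentiating cells, 17 of 18 for S and 4 of 15 for G2/M were at least 2-fold higher on both platforms.

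Single members varied in which of the factors they held. *Pax7* had counts in 88.9% of Smart-seq2 members and in 33.99% of 10x members (26.5 to 42.1), whose cells are far shallower. In dermal fibroblast-like 10x cells, which had a median of 5557 UMIs and should lack the gene, 0 of 193 had counts, with an upper limit of 1.55%. *Myod1* had counts in 81.5% and 49.7% of members against 1.04% of dermal fibroblast-like 10x cells, and *Myog* in 31.5% and 29.4% against 6.22%. In the 41 dermal fibroblast-like Smart-seq2 cells the shares were 2.44%, 7.32% and 4.88% for the 3 genes. When all cells were thinned to 1000 UMIs, *Pax7* was left in 4.58% of 10x members, *Myod1* in 15.03% and *Myog* in 8.50%, so the 10x shares fell with depth, and on Smart-seq2, thinned to 100000 counts, *Pax7* was left in 70.4%.

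Most members held *Pax7* and *Myod1* at once. On Smart-seq2 40 of 54 members (74.1%) had counts of both, 8 had *Pax7* without *Myod1*, 4 had *Myod1* without *Pax7*, and 2 had neither. Counts of *Myog* appeared in 17 members, all 17 of which had *Myod1*, 13 *Pax7* and 14 *Top2a*. On 10x 21 of 153 members had both *Pax7* and *Myod1* and 46 had neither, at a depth where an absent count says little.

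Levels ranged widely within the class. The median Smart-seq2 member held 38.9 CPM of *Pax7* (lowest 0, highest 184), 219 CPM of *Myod1* (0 to 1252), 344 CPM of *Msc* (0 to 1491) and 0 CPM of *Myog* (0 to 4959). *Capn6* was the steadiest, from 1822 to 6794 CPM. The plates differed in *Myog*, which summed to 301, 540, 354 and 13.5 CPM, the fourth plate with 8 members standing low.

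Across the 54 Smart-seq2 members, *Myog* went with *Myod1*. Of 8657 genes, its Spearman correlation across cells was highest for *Myod1* (0.66), *Rb1* (0.65), the retinoblastoma gene of cell cycle exit, and *Hdac5* (0.63), a histone deacetylase gene. It was lowest for *Tspan9* (-0.68), *Mmp2* (-0.57), *Hey1* (-0.56), a Notch target, *Chodl* (-0.54) and *Myf5* (-0.52), with *Msc* at -0.51. The rule required the panel of *Msc* and *Myf5* to score above that of *Myog*, so their correlations with *Myog* are bound by it. For *Pax7* the highest were *Col6a2* (0.56) and *Pmm1* (0.54) and the lowest *Tsfm* (-0.52), while *Heyl* was at 0.38, *Msc* at 0.37, *Myod1* at -0.16 and *Myog* at -0.28. These values describe cells that share plates and pools, and correlations with depth were 0.15 for *Pax7* and -0.02 for *Myog*.

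**Figure D3:**
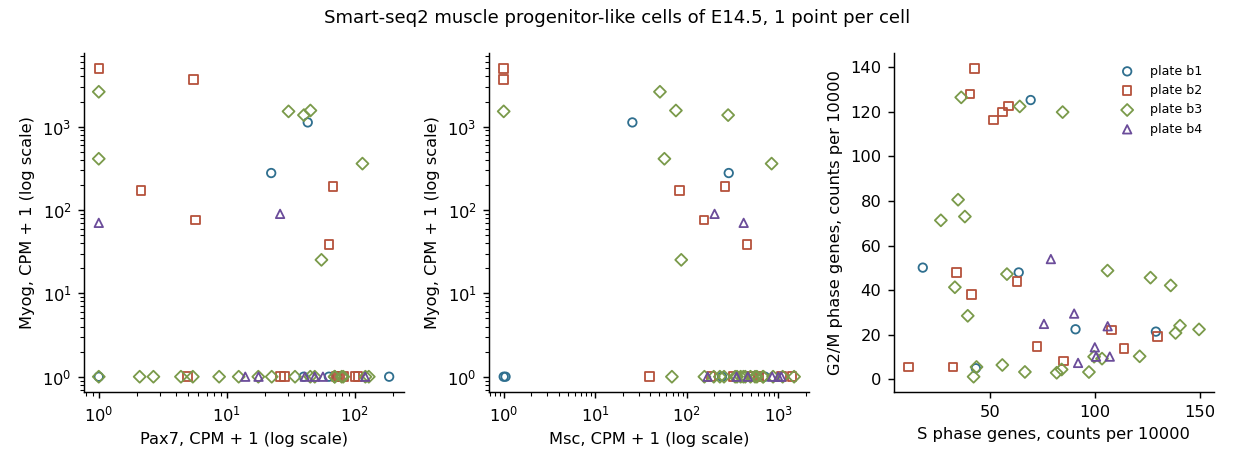
Single Smart-seq2 members at E14.5, coloured by plate, in 3 panels: *Pax7* against *Myog* and *Msc* against *Myog*, both in CPM, and summed S phase against G2/M phase counts per 10000 counts. Most members have no *Myog* (median 0 CPM), 13 have both *Pax7* and *Myog*, and S phase counts run from 11.4 to 153. *Msc* and *Myog* both belong to panels of the rule.

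Whether the members changed between E12.5 and E14.5 was tested with cells chosen by the same rule at each day: 75 at E12.5 (31 on 10x, 44 on Smart-seq2) and 147 at E16.5 (84 and 63). Counts were summed per platform and day, and the 6 sums were fitted with edgeR's quasi-likelihood test, with day and platform as terms and Benjamini-Hochberg adjustment over 12205 genes. The 2 platforms are the only replicates of a day, they were drawn from pools, and their sums leave 2 residual degrees of freedom. The rule did not use the contrast between days, but the 36 panel genes chose the cells of each day and are described only.

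Of 12205 genes 607 (4.97%) passed at an adjusted p under 0.05, 384 higher (3.15%) and 223 lower (1.83%) at E14.5. The change had the same sign on both platforms in 459 of them. Among the higher genes were *Chodl*, *Gas6*, *Cd44*, *Dlk1*, *Itga7*, *Cd34*, *Vcam1* and collagens VI and XV, and among the lower ones *Fgf5*, *Meox1*, *Itga4* and *Lin28b*, none of which was called in both DESeq2 and the sums per sequencing batch. *Pax7* did not pass the test. Panel genes are among these counts, and nothing is read from their calls.

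*Chodl* (chr16:78930948-78951733, plus strand) was at 12.0 CPM in the 10x E12.5 members (a single count, with an exact Poisson interval of 0.303 to 66.6 for counting error), then 58.1 and 51.4 at the later days. On Smart-seq2 it was at 1.87, 217 and 436 CPM, and the E14.5 plates held 146, 168, 363 and 112 CPM, all far above the E12.5 sum. The log2 fold change from E12.5 to E14.5 was 7.01 ± 0.71 (SE; edgeR adjusted p = 3.5e-19), 116-fold on Smart-seq2 alone. Counts of it were found in 11 of 44 Smart-seq2 members at E12.5 and 79.6% at E14.5, or 14.3% and 72.2% when cells were thinned to 100000 counts. In dermal fibroblast-like Smart-seq2 cells of E14.5 the thinned share was 7.32% (3 of 41).

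*Dlk1* (chr12:109452823-109463336, plus strand), an imprinted gene that encodes a delta-like transmembrane protein, was at 132, 1359 and 2610 CPM on 10x in order of day. On Smart-seq2 it was at 46.6, 486 and 288 CPM, with 393, 702, 255 and 262 CPM on the E14.5 plates. Its rise to E14.5 was 10.3-fold on 10x and 10.4-fold on Smart-seq2, log2 3.47 ± 0.37 (edgeR adjusted p = 2.0e-17). Dermal fibroblast-like 10x cells at E14.5 also had counts of it in 99.5% of cells, so the gene is not particular to the muscle class.

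*Gas6* was at 0, 61.4 and 51.4 CPM on 10x in order of day, and at 5.64, 152 and 155 CPM on Smart-seq2 (27.1-fold to E14.5, edgeR adjusted p = 9.4e-12). *Cd44*, the hyaluronan receptor gene, was at 0, 52.5 and 83.6 CPM on 10x and 8.18, 146 and 527 CPM on Smart-seq2 (17.8-fold, adjusted p = 2.9e-11). In the shallow 10x sum of E12.5, 3 counts come to 35.9 CPM, so a 0 there allows a level of that size. *Emp1*, a tetraspan membrane protein gene, *Crip2*, a LIM domain protein gene, and *Agtr2*, the type 2 angiotensin II receptor gene, also rose, by log2 4.86 ± 0.65, 4.29 ± 0.53 and 3.76 ± 0.53.

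Of 26 satellite cell niche and adhesion genes, 7 rose and 0 fell, with a median log2 fold change of 0.82 against 0.07 over all genes tested. *Itga7*, the laminin-binding integrin alpha7 of muscle, was at 3.03 CPM in Smart-seq2 members at E12.5 and at 217, 163, 98.8 and 18.6 CPM on the E14.5 plates (46.4-fold over the summed plates, edgeR adjusted p = 7.1e-14). *Vcam1*, an adhesion molecule that marks adult satellite cells, was at 17.9 CPM and at 75.7, 143, 112 and 177 CPM (7.04-fold, adjusted p = 2.2e-05). Every plate lay above the E12.5 sum for both genes. *Cd34*, another surface protein of satellite cells and of other progenitors, was at 1.71 and 107 CPM on Smart-seq2 (62.8-fold, adjusted p = 2.0e-12). *Calcr*, the calcitonin receptor gene of quiescent satellite cells, was at 0 and 6.14 CPM, at least 45.1-fold higher against a floor of 3 counts (adjusted p = 2.1e-06), but came from 7.41% of cells and was at 0 on 2 of 4 plates. *Cav1*, *Dag1* and *Bcam* made up the 7. The calls of *Itga7*, *Vcam1* and *Cd34* also stood in DESeq2 and in sums per sequencing batch, and the other 4 did not stand in both. On 10x at E12.5, *Itga7*, *Vcam1* and *Cd34* each had counts in 0 of 31 members, which allows up to 35.9 CPM. The 10x level of *Vcam1* at E14.5 lay under that, so 10x gave no direction for *Vcam1*.

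Of 29 extracellular matrix genes, 8 rose and 1 fell, with a median of 1.01. *Col6a2*, a chain of collagen VI, was at 12.0 and 46.8 CPM on 10x and 33.4 and 372 CPM on Smart-seq2 (11.1-fold, edgeR adjusted p = 1.9e-07), with 313, 451, 281 and 363 CPM on the plates. Its 12.0 CPM on 10x is a single count, and the counting interval given above for *Chodl* also covers 46.8 CPM. *Col15a1*, a basement membrane collagen, was at 0 CPM on both platforms at E12.5 and at 38.8 and 124 CPM at E14.5, at least 906-fold higher on Smart-seq2. *Col6a1*, the laminin chain genes *Lama4* and *Lamc1*, *Bgn*, *Mgp* and *Postn* also rose, and *Col1a1* fell, though its direction turned without the Smart-seq2 E12.5 sum. *Postn* is also a gene of the late mesenchyme panel, which helped to choose the members, so its call is no finding. The calls of *Col15a1*, *Col6a1* and *Col6a2* stood in DESeq2 and in sums per sequencing batch as well.

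Markers of other cells moved between the same days. *Col2a1* and *Tnmd* of 5 chondrocyte and tenocyte markers were called higher at E14.5. That list summed to 619 CPM in Smart-seq2 members and to 3439 CPM on the first plate, where 1 of 6 members held about 42000 CPM of *Col2a1*. Without that plate the log2 fold change of *Col2a1* was -2.43. The 4 genes of the late mesenchyme panel, *Ogn*, *Aspn*, *Postn* and *Igf1*, summed to 12.0 CPM (a single count) in the 10x members at E12.5 and 137 at E14.5, and to 151 and 540 CPM on Smart-seq2, against 1165 and 1969 CPM in E14.5 cells of neither muscle class. *Ogn* alone, which encodes the matrix proteoglycan osteoglycin, was at 0 and 77.5 CPM on 10x. The endothelial marker *Pecam1*, the Schwann cell marker *Erbb3* and the epithelial marker *Epcam* were called lower. DESeq2 made none of these calls, and the batch sums did not make those of *Col2a1*, *Tnmd*, *Pecam1* and *Erbb3*. On Smart-seq2 at E14.5 the Schwann list was higher in the muscle classes, at 63.6 CPM in members and 342 in differentiating cells, against 7.10 in cells of neither class. The part of other cell types in the results was not tested.

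The myogenic factors were not called less often than other genes. Of 37, 2 rose and 3 fell, with a median of 0.08, while 3.15% of all genes tested rose and 1.83% fell, with a median of 0.07. *Pax7* was at 59.8 and 66.2 CPM on 10x and at 52.7 and 51.8 on Smart-seq2, log2 0.20 ± 0.49 (edgeR adjusted p = 0.91). *Myf5*, which helped to choose the members at each day, was at 275 and 129 CPM on 10x and at 255 and 144 on Smart-seq2. *Pax3* was at 96.5 and 16.8 CPM on Smart-seq2 and had counts in 71.4% and 31.5% of cells after thinning (70.5% and 40.7% before), but did not pass (adjusted p = 0.11). *Myod1* rose, from 132 to 178 CPM on 10x and from 120 to 339 on Smart-seq2 (log2 1.37 ± 0.43, adjusted p = 0.031), a call that DESeq2 and the batch sums did not make.

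*Meox1*, a homeobox gene of the somite, fell from 47.8 to 0 CPM on 10x and from 68.4 to 3.42 on Smart-seq2 (log2 -4.61 ± 0.80, edgeR adjusted p = 2.0e-06). *Meox2*, of the same family, fell and *Runx1* rose. The 5 calls among the myogenic factors did not stand in both DESeq2 and the batch sums.

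Genes known to separate embryonic from fetal myogenesis moved both ways, with 4 of 20 higher and 3 lower. *Nfix*, which encodes a factor of the fetal muscle program, was at 12.0, 25.8 and 64.3 CPM on 10x and at 3.43, 21.9 and 35.2 on Smart-seq2, with 18.7, 20.9, 27.9 and 12.6 CPM on the E14.5 plates (log2 2.58 ± 0.71 to E14.5, edgeR adjusted p = 0.0099). The 10x value at E12.5 was a single count in 1 of 31 members. At E14.5 *Nfix* was at least 2-fold lower in members than in cells of neither muscle class on both platforms. *Nfic*, of the same family, rose by log2 3.07 ± 0.56, and the perinatal myosin gene *Myh8* and *Itga7* rose. *Lin28b*, an RNA-binding protein gene of early embryonic cells, was at 12.0 (a single count), 0 and 0 CPM on 10x and at 19.2, 1.18 and 0.15 on Smart-seq2 (adjusted p = 0.017). *Hmga2*, a chromatin protein gene and a member of the early mesenchyme panel, was at 83.7, 32.3 and 12.9 and at 49.5, 8.17 and 3.95 CPM, and since the rule used it, its place among the 3 lower genes is no finding. The embryonic myosin gene *Myh3* was also called lower (edgeR adjusted p = 0.049), a call lost when any single E14.5 plate was left out. Of these calls, those of *Nfic*, *Itga7* and *Myh8* stood in DESeq2 and the batch sums, and those of *Nfix*, *Lin28b* and *Myh3* stood in neither.

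Signalling genes changed in small numbers. *Fgf5*, a fibroblast growth factor ligand gene, was at 71.7, 5.65 and 0 CPM on 10x and at 69.2, 6.50 and 0.32 on Smart-seq2, a fall of 12.7-fold and 10.7-fold to E14.5 (log2 -3.30 ± 0.69, edgeR adjusted p = 1.4e-04), a call that the batch sums did not make. *Jag2*, a Notch ligand gene, was at 0 on Smart-seq2 at E12.5 and at least 85.8-fold higher at E14.5, a call that neither DESeq2 nor the batch sums made. Together with *Dlk1* it made 2 of 17 Notch pathway genes higher and 0 lower. Of 27 growth factor genes 2 fell, *Pdgfc* and *Cntfr* (the sign of *Cntfr* turned without the Smart-seq2 E12.5 sum), and of 16 Wnt pathway genes 1 fell, *Tcf7l2*. Of 20 Bmp and Tgf-beta pathway genes 1 rose, the receptor gene *Tgfbr2*. Over all genes tested 3.15% rose and 1.83% fell, and such small counts are read as no result about these lists. The batch sums made none of the calls of *Pdgfc*, *Cntfr*, *Tcf7l2* and *Tgfbr2*. *Itga4*, the alpha4 integrin gene, was at 95.7, 11.3 and 0 CPM on 10x and at 182, 28.1 and 9.92 on Smart-seq2 (log2 -2.62 ± 0.53, adjusted p = 8.4e-05), and the cofactor gene *Mn1* fell by 2.68.

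*Pdgfra*, a mesenchymal receptor gene chosen after its values were seen, was at 0 on 10x at each day and at 45.1, 1.45 and 0.06 CPM on Smart-seq2. It had counts in 52.3% of Smart-seq2 members at E12.5 and 11.1% at E14.5, or 42.9% and 3.70% after thinning. The fall was 31.02-fold on Smart-seq2 (log2 -4.85 ± 1.08, edgeR adjusted p = 5.2e-04). DESeq2 did not make this call, nor did the fit without the E14.5 Smart-seq2 sum, and 10x held no counts in 31 members at E12.5 or 153 at E14.5.

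Cell cycle genes were called higher at E14.5 in part. Of 20 G2/M genes 6 rose and 0 fell, with a median of 1.20, and of 20 S phase genes 2 rose, *Pcna* and *Ccne1*, with a median of 0.70. *Top2a* was at 251 and 321 CPM on 10x and at 155 and 456 on Smart-seq2. Of these 8 calls, that of *Ccne1* stood in DESeq2 and the batch sums. *Cdkn1c*, an imprinted cyclin-dependent kinase inhibitor gene, rose from 2332 to 5837 CPM on 10x and from 948 to 2163 on Smart-seq2 (log2 1.49 ± 0.30, edgeR adjusted p = 8.4e-05). *Cdkn2c*, another inhibitor gene, was at 0 on Smart-seq2 at E12.5 and at least 31.2-fold higher at E14.5.

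Of 36 contractile and fusion genes 5 rose, *Actc1*, *Tnni2*, *Myh8*, *Cryab* and *Cdkn1c*, and 2 were called lower, *Myh3* and *Mymk*. Although on this list, *Cryab* and *Cdkn1c* are not contractile or fusion genes. *Mymk* took the other sign in the batch sums and without either Smart-seq2 sum of the 2 days. Of 14 imprinted growth genes 2 rose, *Dlk1* and *Cdkn1c*, and 1 fell, *Nnat*. Of 28 respiratory chain genes 0 passed. Immediate-early genes, which dissociation of tissue can induce and which were chosen after their values were seen, were higher at E14.5: *Fos* by log2 1.51 (edgeR adjusted p = 0.0069), *Jun* by 1.37 and *Egr1* by 1.35, as was the heat shock gene *Hspa1a* by 2.01. Their part in the other changes was not tested.

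The calls rested mostly on the Smart-seq2 sums: without the E12.5 Smart-seq2 sum 1 gene passed, without the E14.5 one 97 did, DESeq2 called 140 and sums per sequencing batch 128. In the main fit, DESeq2 and the batch sums alike 70 genes were called, among them *Chodl*, *Gas6*, *Dlk1*, *Cd44*, *Emp1*, *Crip2*, *Cd34*, *Vcam1*, *Itga7*, *Col6a2*, *Nfic*, *Mn1* and *Cdkn1c*.

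**Figure D4:**
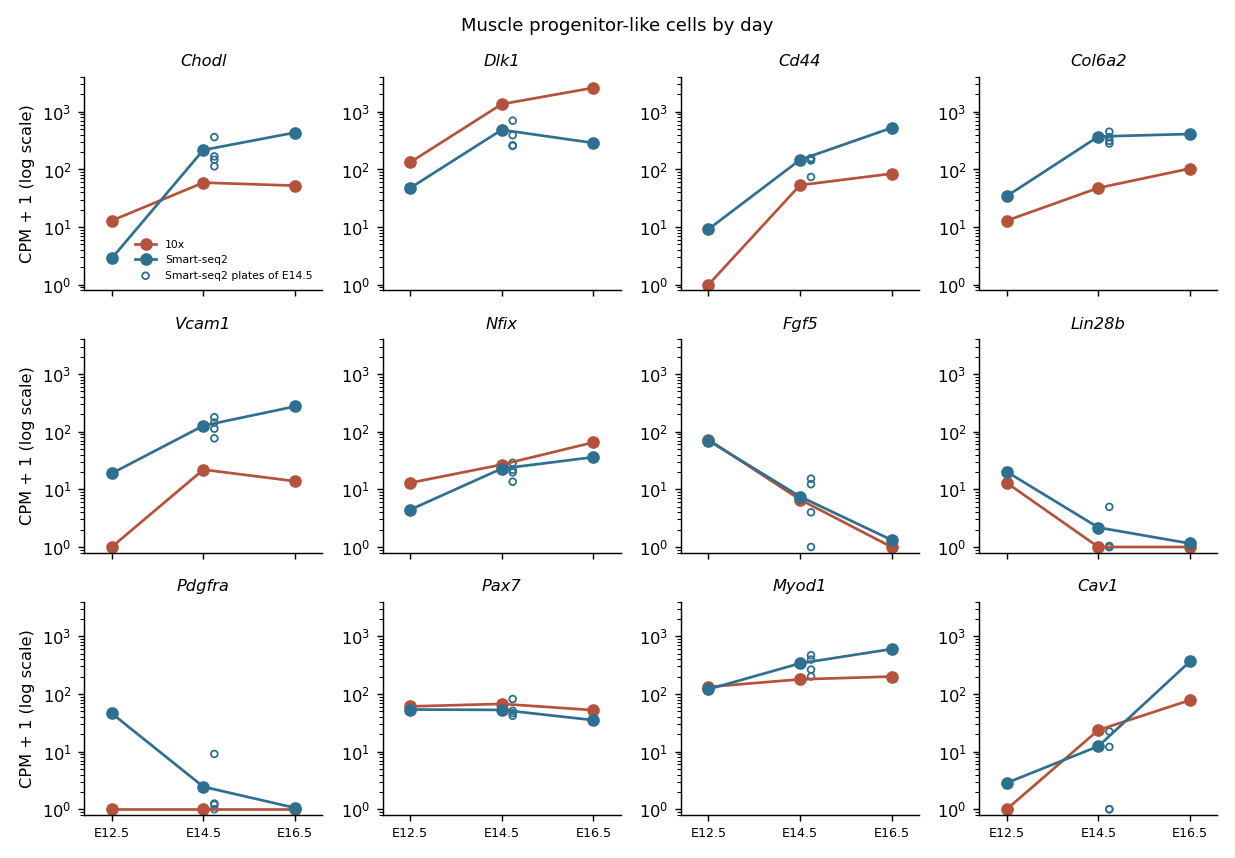
Level of 12 genes in summed muscle progenitor-like cells, in CPM + 1 on a log axis, by day of harvest, for 10x and Smart-seq2, with the 4 E14.5 plates as open circles. *Chodl*, *Dlk1*, *Cd44* and *Col6a2* lie higher at E14.5 than at E12.5 on both platforms, *Fgf5* and *Lin28b* lie lower, and summed *Pax7* stays between 34.2 and 66.2 CPM. The 10x E12.5 points of *Chodl*, *Col6a2*, *Lin28b* and *Nfix* are single counts, too few to give a direction on 10x alone.

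**Figure D5:**
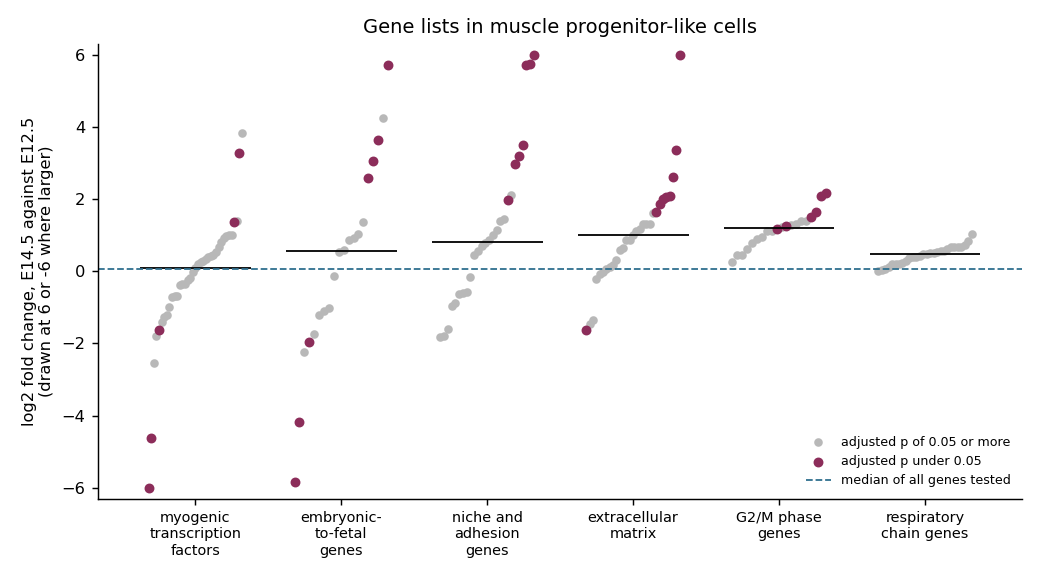
Log2 fold change of single genes from E12.5 to E14.5 in muscle progenitor-like cells, on the y axis and limited to 6 in either direction, for 6 gene lists, with purple points for an adjusted p under 0.05, a black line at the list median and a dashed line at the median of all genes (0.07). The medians of the matrix list (1.01), the niche list (0.82) and the G2/M list (1.20) lie above the dashed line.

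Whether the members changed further by E16.5 was read from the same fit, in which both comparisons share the E14.5 sums. From E14.5 to E16.5 fewer genes passed: 261 of 12205 (2.14%), 104 higher (0.852%) and 157 lower (1.29%), of which 168 had the same sign on both platforms. *Cav1*, which encodes the membrane scaffold caveolin-1, was at 0, 22.6 and 77.1 CPM on 10x and at 1.86, 11.4 and 365 on Smart-seq2, a rise from E14.5 to E16.5 of 3.41-fold and 32.1-fold (log2 3.89 ± 0.55, edgeR adjusted p = 4.2e-09). It was at 0, 11.1, 21.3 and 0 CPM on the E14.5 plates, all far under the E16.5 sum. *Fhl1*, a LIM domain protein gene of muscle, rose 4.23-fold on 10x and 11.2-fold on Smart-seq2 (adjusted p = 9.4e-07).

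*Cd44* rose further, by log2 1.49 (edgeR adjusted p = 0.040), and *Calcr* rose 7.18-fold on Smart-seq2, from 6.14 to 44.1 CPM (adjusted p = 0.035). *Calcr* then had counts in 23.8% of Smart-seq2 members and in 0 of 62 dermal fibroblast-like cells. *Matn2*, a matrix adaptor protein gene, and *Crip1*, a LIM domain protein gene, rose by 2.42 and 2.31, and *Cdkn1a*, the cyclin-dependent kinase inhibitor p21, rose by 1.98 (adjusted p = 0.012). *Myh3* was at least 79.4-fold higher on Smart-seq2 at E16.5. Neither DESeq2 nor the batch sums nor a fit of only these days made the calls of *Calcr* and *Cdkn1a*. That of *Cd44* did not stand in both DESeq2 and the batch sums.

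Among the lower genes at E16.5 were *Cltc*, the clathrin heavy chain gene (log2 -2.22), and *Tcf3*, an E protein gene whose product pairs with the myogenic factors (log2 -1.57, edgeR adjusted p = 0.028). *Meox1* fell again, at least 60.1-fold on Smart-seq2. The Wnt pathway genes *Sfrp1* and *Lgr5* and the cadherin gene *Cdh11* fell, and so did *Fgf5*. *Col2a1* and *Tnmd* fell as well, with the first E14.5 plate behind the *Col2a1* level. Neither DESeq2 nor the batch sums made the calls of *Cltc*, *Tcf3*, *Meox1*, *Sfrp1*, *Lgr5*, *Cdh11*, *Col2a1* and *Tnmd*. *Fgf5* was not called in both of them.

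By list, 2 of 26 niche and adhesion genes rose and 1 fell. Of 36 contractile and fusion genes 3 rose (*Myh3*, *Cryab* and *Cdkn1a*) and 0 fell, with a median of 1.01 against -0.08 over all genes. Although on this list, *Cryab* and *Cdkn1a* are not contractile or fusion genes. Neither DESeq2 nor the batch sums nor a fit of only these days made any of the 3 calls. In the matrix, S phase, G2/M, Notch, growth factor, Bmp and Tgf-beta, imprinted and respiratory chain lists 0 genes passed, with the matrix median at 0.52.

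*Pax7* was at 66.2 and 51.4 CPM on 10x and 51.8 and 34.2 on Smart-seq2 (edgeR adjusted p = 0.91). *Chodl* and *Nfix* did not pass (adjusted p = 0.62 and 0.55), and *Dlk1* was 1.92-fold higher at E16.5 on 10x but 1.69-fold lower on Smart-seq2. *Vcam1* was at 20.995 and 12.9 CPM on 10x and 126 and 273 on Smart-seq2. The heat shock genes *Hspa1b* and *Dnajb1*, chosen after their values were seen, rose by 2.80 and 1.65 and *Fos* by 1.31. DESeq2 called 19 genes and the batch sums 8, and the main fit shared 7 with both, among them *Cav1*, *Fhl1*, *Matn2* and *Crip1*. Without the Smart-seq2 sum of E16.5 or of E14.5, 2 and 3 genes passed.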

How the data were processed

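Pregnant mice with *Pax7CreER:R26R-stop-EYFP* embryos received tamoxifen at 75 µg/g body weight at E9.5, and YFP+ cells of the embryos were sorted at 3 days. The authors made the 10x UMI counts with Cell Ranger, and the deposited Smart-seq2 values are estimated counts from kallisto 0.44.0 and tximport. Cells with over 8% mitochondrial counts were left out, 15147 genes in both tables were used, and 18 columns of bulk samples were not used. Counts of members were summed per platform and day (at least 20 cells, estimated counts rounded) and tested with edgeR 4.0.16 in R 4.3.3 (quasi-likelihood, TMM, filterByExpr). DESeq2 1.42.0 was an alternative, scores came from numpy 2.4.6 and pandas 2.3.3, intervals from scipy 1.17.1, and doublets from Scrublet in scanpy 1.11.5, marked but kept. Barcode suffixes gave each 10x cell its day, per the labels. On simulated data for E14.5 against E12.5 (11991 genes), 4.26% of genes changed by log2 1 and 32.3% of those changed by log2 2 were recovered, and 23.4% of calls were false. Members and lists were chosen with earlier results of these data known. Genes named were the 10 largest rises and falls between days of at least 50 CPM with the same sign on both platforms, the 15 and 10 largest ratios at E14.5, the 5 strongest correlations, and examples of each list. Some genes of the lists are counted but not reported here by name.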

Additional observations from a re-analysis of the deposited data

Results flagged for a closer look

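Over Smart-seq2 plates, 64 groups of values were examined by Dixon's criterion, under which chance marks about 1 in 20 groups. They came from the 4 plates of E14.5, except the member shares on the plates of E12.5 and of E16.5. In 14 groups, all of E14.5, a plate stood apart from the others. Among genes of the muscle class, *Vgll2* stood highest on the second plate at 237 CPM, *Ank1* there at 116 CPM, *Fitm1* on the fourth at 115 CPM and *Kcne1l* on the fourth at 600.5 CPM, while *Tnnt1* was lowest on the first at 103 CPM. Of the genes that differed between days, *Cd44* was lowest on the fourth plate at 73.1 CPM, still above its E12.5 level of 8.18 CPM. *Crip2* was highest on the second at 389 CPM, *Tmem119* on the second at 52.2 CPM, *Cdkn1a* on the third at 36.4 CPM and *Limch1* on the first at 18.04 CPM. Markers of other cells stood apart too. The chondrocyte and tenocyte genes summed to 3439 CPM and the dermal fibroblast panel to 29.7 CPM on the first plate, the blood genes to 10.3 CPM on the fourth and the epithelial genes to 0.0788 CPM on the second.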

How the results depend on the processing

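From E12.5 to E14.5, DESeq2 called 140 genes, sums per sequencing batch 128, the same with at least 5 cells 29 (a setting chosen after seeing the data), and leaving out a library or plate gave 1 to 805. From E14.5 to E16.5, DESeq2 called 19 genes, a fit of only those days 60, sums per sequencing batch 8, the same with at least 5 cells 0 (423 at an unadjusted p under 0.05), and leaving out a library or plate gave 2 to 470. Without the Smart-seq2 sum of E12.5, E14.5 or E16.5 the calls were 1, 97 and 626 for the first comparison and 83, 3 and 2 for the second. Without the 10x sum of E12.5, E14.5 or E16.5 they were 422, 545 and 805, and 146, 269 and 470, and without the third E14.5 plate 468 and 153. *Dlk1* kept its call to E14.5 in all 23 alternatives, and *Chodl*, *Gas6*, *Cd44*, *Emp1*, *Itga7*, *Vcam1*, *Col15a1* and *Col6a2* in 22, all but the one without the Smart-seq2 E12.5 sum.

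A score of at least 1.0 gave 10x member shares of 1.67%, 12.2% and 6.17% at the successive days. Counts of at least 2 panel genes gave 1.87% at E12.5 and 4.79% at E16.5, and thinning to 1500 UMIs gave 5.06%, 10.6% and 12.1%. Leaving out cells that also scored for differentiating muscle gave 16.49% on Smart-seq2 at E16.5. The first and the second of these settings left under 20 cells in the 10x E12.5 sum, so their tests lacked it. The log2 fold change of *Col2a1* to E14.5 turned to -2.52 when 2 panel genes were required and ran from -2.43 to 2.86 when a library or plate was left out. That of *Mymk* turned to 0.60 in the batch sums and ran from -3.75 to 10.25, that of *Cntfr* from -13.30 to 10.36 and that of *Col1a1* from -2.51 to 1.88. That of *Pdgfra* to E16.5 ran from -7.91 to 1.69. The cause of these turns was not tested. Platform was a term in every fit. No paired analysis was possible because replicate numbers of different days share no animal and the sums carry none. Embryos were pooled, so no value here measures the spread between animals.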
